A study of Canis lupus familiaris with 33 samples.

Results

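The complement genes C2, C3, C5, C6, C7, CFB, CFD, SERPING1 and CLU were examined in naturally occurring canine invasive urothelial carcinoma (iUC). They were taken as the rows of the TMM-normalized expression table that carried 1 of these 9 gene symbols. Of the 9 genes, 7 had such a row among the 25096 genes of the table, and C2 and CFB were not analysed here. RNA-seq had been performed on 29 high grade tumors, mostly cystoscopic biopsies, from 29 different untreated dogs, and on 4 samples of normal bladder mucosa. The normals were dissected mucosa of dogs without bladder disease as the reason for their death. The labels give no breed, age or sex for any group, and the study's methods set no limit on them for the dogs with tumors. All 33 libraries were depleted of ribosomal RNA and run in a single sequencing batch.

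Complement is a cascade of plasma and tissue proteins that tags and lyses cells and recruits leukocytes. Its classical, lectin and alternative routes converge on C3, whose fragments coat surfaces and, with C5, give the small peptides that attract inflammatory cells. C5, C6, C7, C8 and C9 then assemble into the membrane attack complex. CFD (factor D) is the serine protease that cleaves factor B, the product of CFB, in the alternative pathway, and C2 is the counterpart of factor B in the classical and lectin routes. SERPING1 encodes the C1 inhibitor, which blocks the proteases that start the classical and lectin routes. CLU (clusterin) is a secreted chaperone that binds the forming terminal complex and keeps it out of membranes. Most plasma complement is made in the liver, but fibroblasts, macrophages and epithelial cells also transcribe several of these genes.

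Each value is a log2 normalized value minus the median of its gene over the 33 samples, so that a difference of 1 is a 2-fold difference between samples. The values of different genes are not comparable as levels. Tumors were compared with normals by limma across 24471 genes, with Benjamini-Hochberg adjustment over all of them, and a gene was called when its adjusted p did not exceed 0.05 and it differed by 2-fold or more. Fold changes are tumor minus normal, with their standard error (SE). In bulk tissue, fewer cells of a type and less RNA per cell cannot be told apart.

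The normal and tumor libraries differed over much of the transcriptome. Of the genes tested, 45.8% were called lower in tumors and 10.7% higher, and the median log2 fold change over all genes was -0.84. In 28.5% of genes every tumor lay below every normal, and in 7.63% every tumor lay above every normal. Many genes have a lowest value that is shared by several samples, and between 620 and 884 genes were at that value in a normal library against 3564 to 8040 in a tumor. Among genes above the lowest value in at least 17 samples, 30.1% were called lower. Of 149 olfactory receptor genes with a shared lowest value, which encode odorant receptors of the nose, 100% lay above it in each normal, against a median of 18.1% in the tumors, with a range of 4.70% to 92.6%. Of the 154 olfactory receptor genes tested, 153 were called lower in tumors, with a median log2 fold change of -5.37. The 3 tumors with the fewest genes at the lowest value were tumors 5, Po and 9, and the limma fits and the correlations among members and with gene lists were repeated without them. The exact permutation tests, the spread among tumors and the ranking of nearest genes were not. None of the 7 complement genes had a lowest value shared between samples. A single sample without reads of a gene would not be seen in this way.

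The cell type markers also differed between the groups. All 7 measured epithelial markers were called higher in tumors, with a median log2 fold change of 2.15, although the normals are labelled as urothelial cells. The study's methods state a high epithelial cellularity for all tumors, and for the normals a urothelial layer dissected off the full bladder wall. All 4 measured smooth muscle markers and all 3 measured Schwann cell markers were called lower in tumors, with median log2 fold changes of -6.21 and -6.51, and 8 of 9 fibroblast markers were called lower, with a median of -2.64. The smooth muscle markers ACTA2, DES and CNN1 were not analysed here. The part of tissue composition in the differences between tumor and normal was not tested.

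Among the 7 measured complement genes, C6, C7, CFD and SERPING1 were called lower in tumors, CLU was called higher, and C3 and C5 were not called. Their median log2 fold change was -1.42. The largest differences among the 7 were in the terminal components C6 and C7, which were 12.1-fold and 46.2-fold lower in tumors. The log2 fold change of C7, -5.53, was close to the median of -5.37 over the 154 olfactory receptor genes tested. The count of 4 of 7 called lower is read against the background of 45.8% of all genes.

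**Figure D1:**
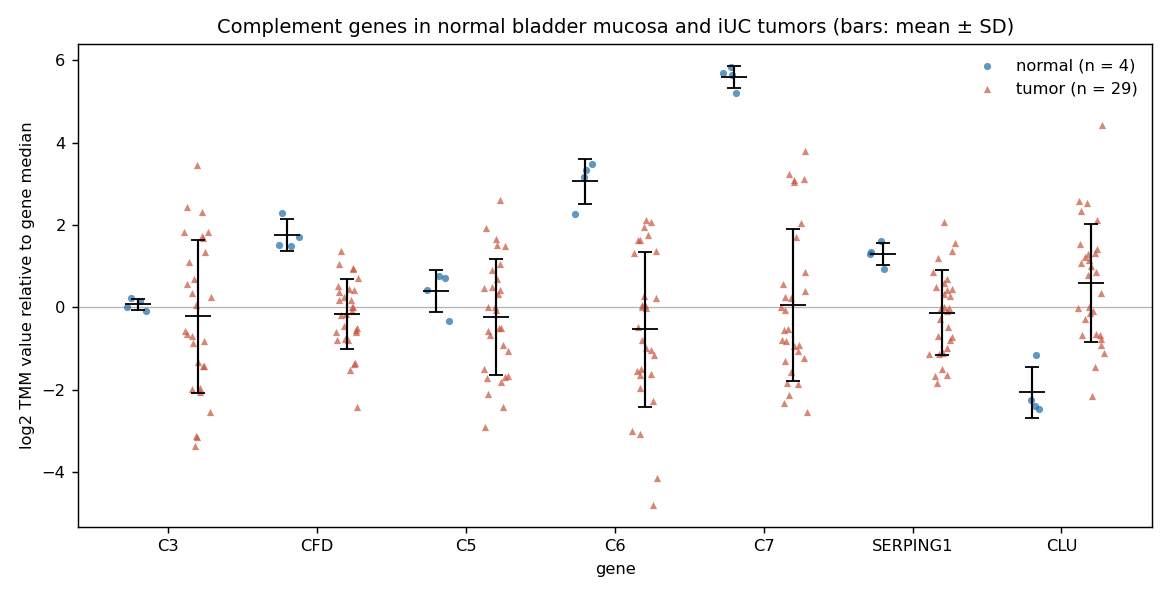
Log2 TMM value relative to the gene median (vertical axis) of the 7 measured complement genes (horizontal axis) in 4 normal bladder mucosa samples (circles) and 29 iUC tumors (triangles), with the mean and SD of each group. C6, C7 and CFD show every tumor below every normal (28.5% of all genes do), CLU shows 27 of 29 tumors above every normal, and the tumors of C3 and C5 spread to both sides of the normals.

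C3 is the point at which the activation routes meet. Its values in the normals A, B, C and D were 0.00, 0.23, -0.08 and 0.14. In the tumors C3 ranged from -3.36 to 3.45 with a median of -0.58. The normals were thus close together in the middle of a wide tumor distribution, with 15 tumors below every normal, 13 above every normal and 1 between them. The means were 0.07 ± 0.14 (SD, n = 4) and -0.22 ± 1.85 (SD, n = 29), and the log2 fold change of -0.29 (SE 0.91) did not pass the test (limma adjusted p = 0.782). The 95% interval of the difference, -2.14 to 1.55, leaves room for changes of more than 2-fold in either direction.

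CFD acts at the start of the alternative pathway and is also known as adipsin for its high expression in fat. It measured 1.72, 1.51, 1.48 and 2.30 in the normals and -2.42 to 1.36, with a median of -0.09, in the tumors. Every tumor was below every normal, as in 28.5% of all genes, although the highest tumor and the lowest normal were close. CFD fell by 1.92 on the log2 scale (SE 0.43, limma adjusted p = 0.000188), which is 3.78-fold. Adipocyte markers were called lower in 2 of 6 measured genes, and the mean level of that list was 0.98 to 2.58 in normals and -1.44 to 2.10 in tumors. The part of fat in the CFD difference was not tested.

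C5 is the first component of the terminal sequence. Its values were 0.71, 0.41, -0.34 and 0.76 in the normals and spanned -2.92 to 2.61 with a median of -0.06 in the tumors. The groups overlapped, with 14 tumors below every normal, 7 above and 8 between. The log2 fold change of -0.61 (SE 0.70) did not pass the test (limma adjusted p = 0.433, 95% interval -2.03 to 0.80).

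C6 and C7 follow C5 in the assembly of the attack complex. C6 measured 2.27, 3.16, 3.34 and 3.48 in the normals and ranged from -4.80 to 2.13, with a median of -0.49, in the tumors. C7 measured 5.20, 5.69, 5.63 and 5.84 in the normals and ranged from -2.56 to 3.81, with a median of -0.54, in the tumors. For both genes all 29 tumors were below all 4 normals, with a narrow gap for C6 and a wide one for C7. With CFD, 3 of the 7 members were separated in this way, against 28.5% of all genes tested. C6 fell by 3.60 (SE 0.92, limma adjusted p = 0.000854) and C7 fell by 5.53 (SE 0.91, limma adjusted p = 2.14e-06) on the log2 scale. Fibroblast markers moved in the same direction, from a mean list level of 2.12 to 2.81 in normals to -2.29 to 2.17 in tumors. Smooth muscle markers went from 5.29 to 7.28 in normals to -1.19 to 4.07 in tumors, and Schwann cell markers from 5.31 to 6.04 to -1.90 to 2.98. No list marker of these 3 cell types was at its lowest value in as many as 15 tumors. Their part in the C6 and C7 differences was not tested.

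SERPING1, the inhibitor at the top of the classical and lectin routes, measured 0.94, 1.28, 1.34 and 1.60 in the normals. The tumors ranged from -1.83 to 2.08 with a median of -0.01. Here the groups overlapped, with 25 tumors below every normal, 3 between the normals and 1 above them, tumor Po. SERPING1 fell by 1.42 on the log2 scale (SE 0.51, limma adjusted p = 0.0133), which is 2.68-fold. Of the 5 called members it was the closest to the threshold, since its adjusted p rose to 0.0488 when normal D was left out.

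CLU, the inhibitor of the terminal complex, was the member that differed in the other direction. It measured -1.15, -2.39, -2.47 and -2.24 in the normals and ranged from -2.16 to 4.43 with a median of 0.78 in the tumors. There were 27 tumors above every normal, the other 2 lay between the normals, and no tumor was below them. CLU was 2.65 higher on the log2 scale in tumors (SE 0.71, limma adjusted p = 0.00134), or 6.28-fold. Epithelial markers moved in the same direction, with a mean list level of -2.68 to -1.32 in normals and -0.48 to 0.72 in tumors, and their part in the CLU difference was not tested.

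An exact two-sided permutation test of the difference in means over all ways of choosing 4 of the 33 samples gave unadjusted p of 0.759 for C3, 0.402 for C5, 0.000464 for C6, 4.89e-05 for CFD, 0.00902 for SERPING1 and 0.000953 for CLU. For C7 the exact permutation p of 2.44e-05 is the smallest that this design allows. The p-values reflect the spread between single samples of different dogs and do not cover repeated sampling of a tumor. Both tables gave the same calls for the 7 genes, and so did leaving out each normal in turn and leaving out tumors 5, Po and 9.

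A further 42 complement genes were listed by role, and 21 of them had a row. In tumors, 9 of the 21 were called lower, 1 was called higher and 11 were not called, with a median log2 fold change of -0.92 against -0.84 over all genes. These counts are read against the 45.8% of all genes called lower and the 10.7% called higher, and neither share of the 21 genes exceeds that background. The terminal components that follow C7 were called lower in 3 of 4 genes. C8A and C8B, which encode chains of C8, had log2 fold changes of -5.84 and -5.17, but 22 and 20 of the 29 tumors were at the lowest value, so these differences depend on that value. C9, the pore-forming subunit, had no shared lowest value among the tumors and fell by 4.59 on the log2 scale, with every tumor below every normal, as in 28.5% of all genes. C8G, the remaining chain of C8, had a log2 fold change of -0.42 (SE 0.67, limma adjusted p = 0.577). C8A, C8B and C9 are best known as liver products. Hepatocyte markers were called lower in 8 of 10 measured genes and higher in 1, their mean level was 3.24 to 4.07 in normals and -0.80 to 1.34 in tumors, and TTR, APOH, FGB and FGG were at the lowest value in 15 tumors or more. The part of these shifts in the C8A, C8B and C9 differences was not tested.

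The genes that start the cascade were divided. COLEC10 and COLEC11, collectins of the lectin pathway, had log2 fold changes of -5.48 and -3.14, and every tumor was below every normal for both, as in 28.5% of all genes, with 6 tumors at the lowest value for COLEC10. The 3 chains of C1q, the recognition molecule of the classical pathway, were not called, with log2 fold changes of 0.47 for C1QA, 0.68 for C1QB and 0.73 for C1QC (limma adjusted p = 0.357, 0.117 and 0.129). C1q is made mainly by macrophages, and 2 of 8 measured macrophage markers were called higher and 1 lower. MASP2, a protease of the lectin pathway, had a log2 fold change of -0.36 and was not called.

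Of the regulators that sit on the cell surface, CD55, which speeds the decay of C3 convertases, was called higher in tumors by 3.15 (SE 0.65, limma adjusted p = 6.15e-05), and 28 of 29 tumors were above every normal. CD59, which blocks the insertion of C9, fell by 1.60 (SE 0.48, limma adjusted p = 0.0034), with 26 tumors below every normal. CSMD1, a large membrane protein with complement control domains, fell by 6.48, with 6 tumors at its lowest value. CD55 and CD59 thus differed in opposite directions. In the secreted group, VTN (vitronectin), which like CLU binds the terminal complex, had a log2 fold change of -0.91 (SE 0.23, limma adjusted p = 0.000777) and missed only the 2-fold limit.

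C4BPB, a chain of the C4b-binding protein, fell by 1.83 (SE 0.54, limma adjusted p = 0.00313). C4BPA, the main chain of the same protein, ranged from -4.34 to 6.83 over the tumors and its log2 fold change of -1.98 was not called (SE 1.56, limma adjusted p = 0.256). Among the receptors, ITGAM, the alpha chain of complement receptor 3, fell by 1.47 (limma adjusted p = 0.00588). The C5a receptors C5AR1 and C5AR2, CD93 and ITGAX were not called, with log2 fold changes of -0.26, -0.92, 0.38 and -0.51.

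**Figure D2:**
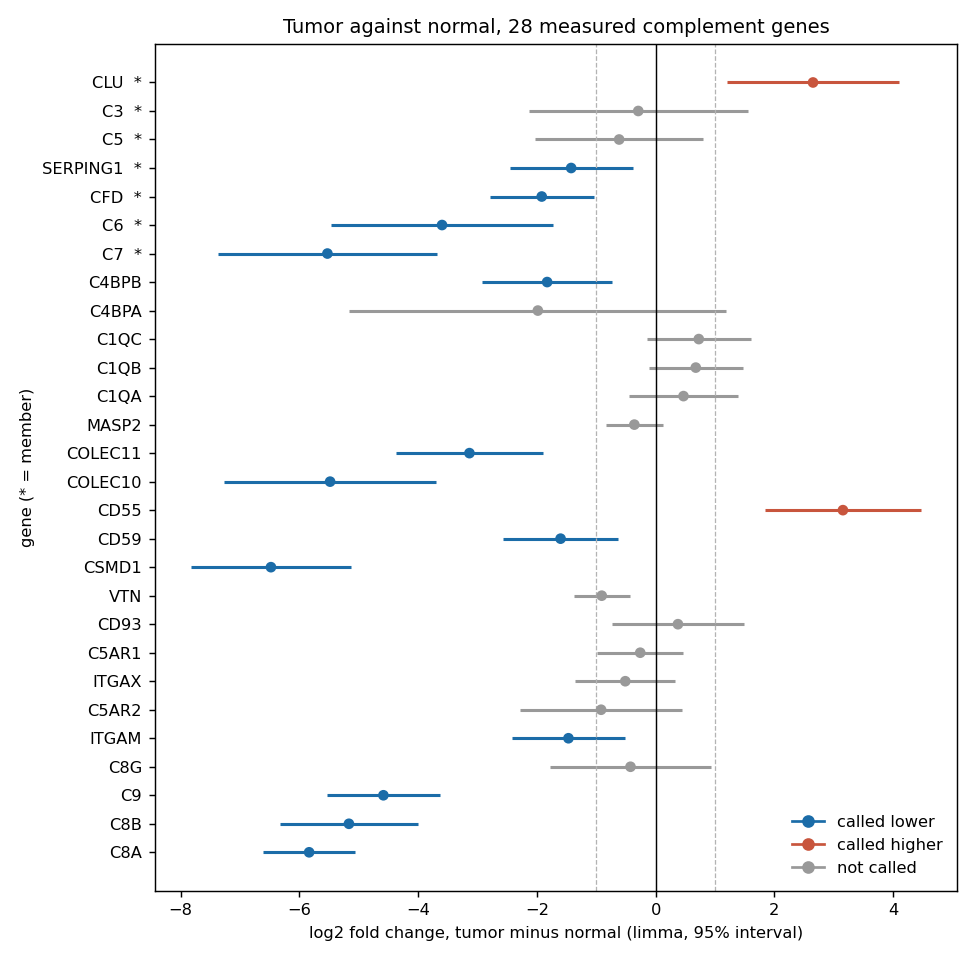
Log2 fold change, tumor minus normal, with its 95% interval from limma (horizontal axis) for the 28 measured complement genes (vertical axis), the 7 members marked with an asterisk and the dashed lines at a 2-fold change. CLU at 2.65 and CD55 at 3.15 are the 2 genes called higher, and CSMD1, C8A, C7, COLEC10, C8B and C9 are all lower by more than 4 on the log2 scale.

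The tumors differed widely from each other in most of these genes. The SD over the 29 tumors was 1.88 for C6, 1.85 for C7 and 1.85 for C3, against a median of 0.64 over all genes tested, and these lay at the 97.3, 97.2 and 97.2 percentiles. CLU and C5 had SDs of 1.44 and 1.41, at the 91.9 and 91.3 percentiles. SERPING1 and CFD varied less, with SDs of 1.03 and 0.86, at the 76.0 and 65.4 percentiles. From the lowest to the highest tumor, C6 covered a 122-fold range, C3 a 112-fold range, CLU a 96.3-fold range and C7 an 82.2-fold range, whereas SERPING1 covered 15.0-fold and CFD 13.8-fold.

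The tumors that were high or low were not the same for every gene. Tumor Po was above the median of the 33 samples in 7 of 7 genes and had the highest SERPING1, at 2.08. Tumors Ab and 20 were above the median in 0 of 7 genes, and tumor 20 had the lowest CFD, at -2.42. Tumor 18 had the lowest C3 (-3.36), C5 (-2.92) and SERPING1 (-1.83), yet a CLU of 2.54. The highest C6 and C7, 2.13 and 3.81, were both in tumor 7_733858, and the lowest, -4.80 and -2.56, were both in tumor Da6. Tumor Da6 also had the highest C5, at 2.61. C7 was above 3 in 5 tumors, namely Ja, 7, Mi, 4 and 7_733858 with values of 3.05, 3.10, 3.12, 3.25 and 3.81, and the next highest value was 2.05 in tumor Sp. Even these 5 tumors were below the lowest normal, at 5.20. CLU was highest in tumor 7, at 4.43, and lowest in tumor 10, at -2.16.

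**Figure D3:**
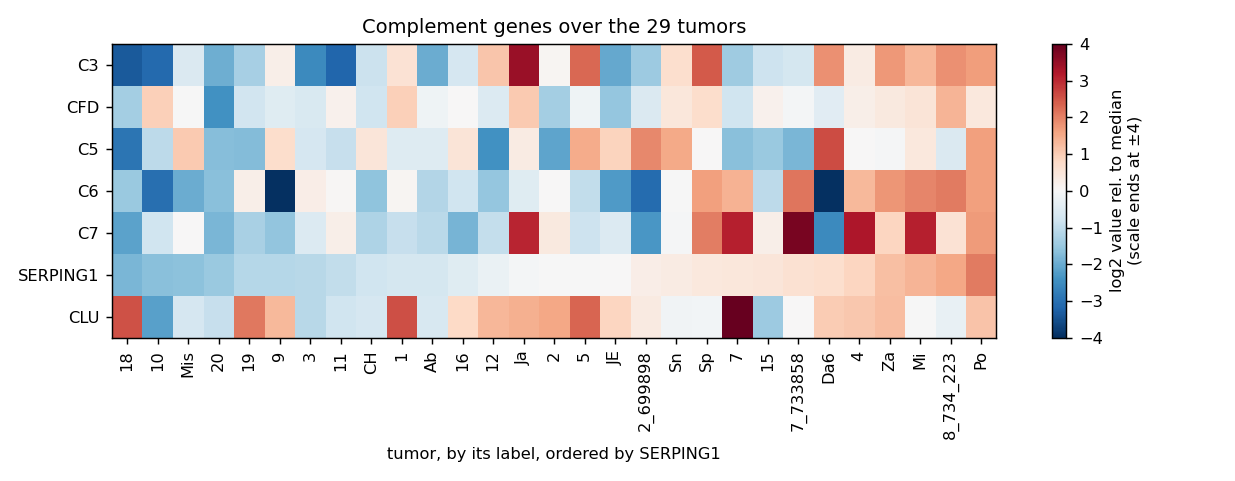
Log2 TMM value relative to the gene median (color, scale ended at 4 in either direction) for the 7 complement genes (rows) in the 29 tumors (columns), ordered by SERPING1 from -1.83 in tumor 18 to 2.08 in tumor Po. The 8 tumors with C6 above 1 are all among the 10 with the highest SERPING1. CLU does not follow this order, with 2.54 in tumor 18 and 4.43 in tumor 7, where SERPING1 was 0.45.

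The co-variation of the 7 genes was tested over the 29 tumors, with two-sided permutation p-values from 100000 resamples adjusted over 119 relations (21 pairs of genes, and each gene against 14 gene list scores). The smallest p that the resamples can give is 1e-05. Of the 21 pairs, 17 had a positive r and 4 a negative r, and 5 passed an adjusted p of 0.05 by both Pearson's r and Spearman's rho. All 5 that passed were positive.

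The strongest pair was C6 and C7, adjacent steps of the terminal sequence, with r = 0.75 (permutation adjusted p = 0.000397) and rho = 0.76 (permutation adjusted p = 0.000595). With the 2 tumors most distant from the C6 median dropped, r was 0.73. In the RefSeq gene table of a newer dog assembly, C6 and C7 are separated by 1 coding gene, MROH2B. C5, which binds C6 and C7 in the same complex, did not follow them, with r = -0.27 for C6 and -0.11 for C7 (permutation adjusted p = 0.34 and 0.711).

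SERPING1 was related to 3 other members. Its r was 0.64 with C3 (permutation adjusted p = 0.00342, rho = 0.60, permutation adjusted p = 0.00976), 0.56 with C7 (permutation adjusted p = 0.0189, rho = 0.57, permutation adjusted p = 0.0157) and 0.53 with C6 (permutation adjusted p = 0.0258, rho = 0.54, permutation adjusted p = 0.0243). Leaving out the 2 tumors farthest from the median of the partner gene gave r of 0.69, 0.53 and 0.67. C3 and CFD, which act together in the alternative pathway, had r = 0.50 (permutation adjusted p = 0.033) and rho = 0.55 (permutation adjusted p = 0.0201), and r fell to 0.40 when the 2 tumors most distant from the C3 median were dropped. CLU was not shown to vary with any other member, its r lying between -0.17 with CFD and 0.26 with C3 (permutation adjusted p = 0.595 and 0.358).

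Without tumors 5, Po and 9, the pairs of C6 with C7 (r = 0.74, permutation adjusted p = 0.00119) and of C3 with SERPING1 (r = 0.66, permutation adjusted p = 0.005) still passed. The pairs of SERPING1 with C7 (r = 0.54) and C6 (r = 0.47) and of C3 with CFD (r = 0.51) then had permutation adjusted p of 0.0534, 0.0942 and 0.0678. The number of genes at the lowest value in a tumor had r of -0.45 with C3, -0.34 with C5, -0.30 with CLU, -0.29 with SERPING1, -0.17 with CFD, -0.06 with C7 and -0.0023 with C6. With that number regressed out, C6 with C7 kept r = 0.75, C3 with SERPING1 had r = 0.59 (permutation adjusted p = 0.00926), and C3 with CFD no longer passed (r = 0.47, permutation adjusted p = 0.063).

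**Figure D4:**
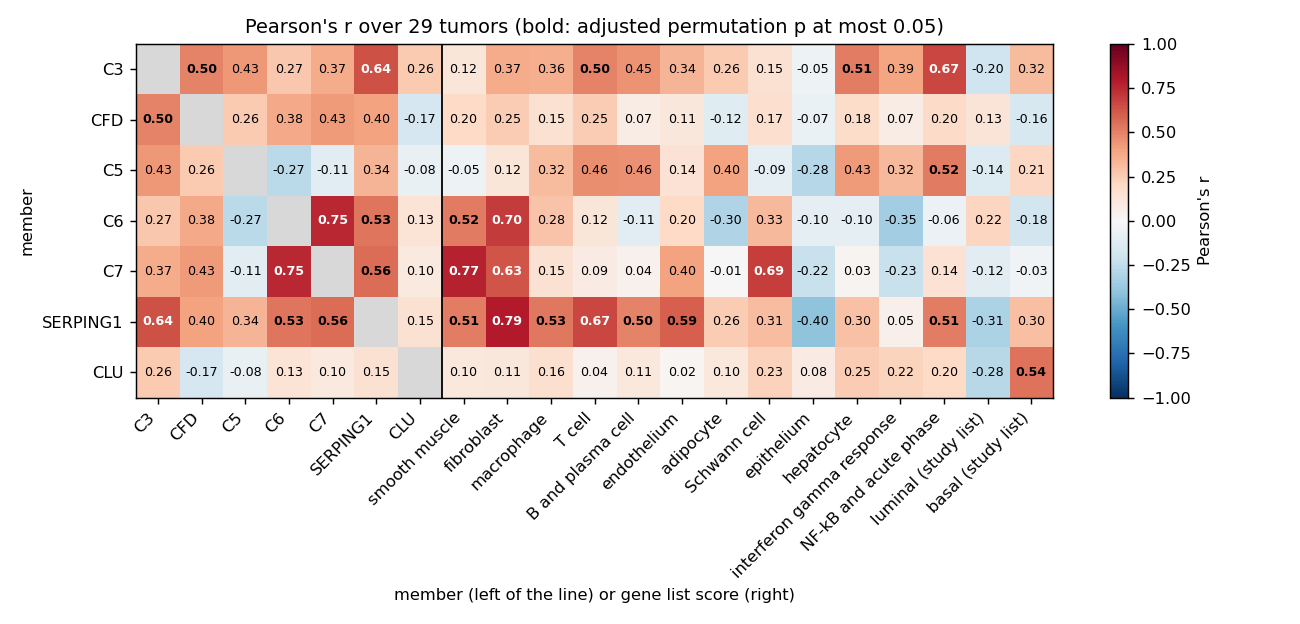
Pearson's r over 29 tumors (color and printed value) of each complement gene (rows) with the other members (left of the line) and with 14 gene list scores (right of the line), bold where the permutation p adjusted over 119 relations is at most 0.05. C6 and C7 are both bold for the smooth muscle and fibroblast scores, although C6 with smooth muscle did not pass by Spearman's rho. SERPING1 is bold for 7 lists, C3 peaks at the NF-kB and acute phase list with 0.67, and CFD is bold for 0 lists.

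The same genes were set against scores of cell type markers and of programs, each the mean z over the measured genes of a list. Of the 98 relations, 17 passed by Pearson's r and 11 by Spearman's rho. C7 varied with the smooth muscle score at r = 0.77 (permutation adjusted p = 0.000397, rho = 0.75), with the Schwann cell score at r = 0.69 (permutation adjusted p = 0.000952, rho = 0.58) and with the fibroblast score at r = 0.63 (permutation adjusted p = 0.0045, rho = 0.66). Without the 2 tumors farthest from the median of each score, r was 0.71, 0.54 and 0.64. C6 varied with the fibroblast score at r = 0.70 (permutation adjusted p = 0.000952, rho = 0.67, 0.66 without the 2 farthest tumors). Its relation with smooth muscle passed by r alone (r = 0.52, permutation adjusted p = 0.0274), since rho of 0.45 had a permutation adjusted p of 0.0802. That relation was also lost without tumors 5, Po and 9 (r = 0.49, permutation adjusted p = 0.0824). C6 did not pass with the Schwann cell score (r = 0.33, permutation adjusted p = 0.241). The fibroblast score was thus the one with which both C6 and C7 varied by both measures, and the part of cell content in this was not tested.

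SERPING1 passed with 7 of the 14 lists. The highest was fibroblast, at r = 0.79 (permutation adjusted p = 0.000397, rho = 0.77, 0.72 without the 2 farthest tumors). T cell followed at r = 0.67 (permutation adjusted p = 0.00153, rho = 0.67), endothelium at r = 0.59 (permutation adjusted p = 0.00869, rho = 0.63) and smooth muscle at r = 0.51 (permutation adjusted p = 0.0288, rho = 0.63). The NF-kB and acute phase list also passed by both measures (r = 0.51, permutation adjusted p = 0.0288, rho = 0.50). Macrophage at r = 0.53 and B and plasma cell at r = 0.50 passed by r and not by rho (permutation adjusted p of rho = 0.0789 and 0.0586). Without tumors 5, Po and 9, fibroblast, T cell and endothelium still passed, whereas smooth muscle, macrophage, B and plasma cell, and NF-kB and acute phase had permutation adjusted p of 0.0824, 0.0885, 0.0678 and 0.0942. With the number of genes at the lowest value regressed out, B and plasma cell (r = 0.46, permutation adjusted p = 0.063) and NF-kB and acute phase (r = 0.45, permutation adjusted p = 0.0862) no longer passed. The r with NF-kB and acute phase was 0.39 when the 2 most distant tumors were dropped. The epithelial score was in the opposite direction, at r = -0.40, and did not pass.

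The highest list relation of C3 was with the NF-kB and acute phase list, genes such as IL6, TNFAIP3 and LCN2 that respond to inflammatory signals, at r = 0.67 (permutation adjusted p = 0.00153, rho = 0.63, 0.64 without the 2 farthest tumors). It kept this relation without tumors 5, Po and 9 (r = 0.64, permutation adjusted p = 0.00697) and with the number of genes at the lowest value regressed out (r = 0.59, permutation adjusted p = 0.0111). The hepatocyte list (r = 0.51) and the T cell list (r = 0.50) passed by r alone, with permutation adjusted p of rho of 0.0571 and 0.0547. Without tumors 5, Po and 9 both were lost (permutation adjusted p = 0.139 and 0.0914), and so they were with the number of genes at the lowest value regressed out (r = 0.28 and 0.45, permutation adjusted p = 0.365 and 0.0862). C5 passed with the NF-kB and acute phase list by r alone (r = 0.52, permutation adjusted p = 0.0288, and rho = 0.45, permutation adjusted p = 0.0789). Its r was 0.35 without the 2 farthest tumors, and the permutation adjusted p was 0.138 without tumors 5, Po and 9 and 0.108 with the number of genes at the lowest value regressed out.

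CLU passed with 1 list, the study's basal genes, at r = 0.54 (permutation adjusted p = 0.0258) and rho = 0.54 (permutation adjusted p = 0.0246), with r = 0.51 without the 2 farthest tumors. The basal list holds genes of the lower urothelial and squamous layers such as KRT14, DSG3 and CD44. Without tumors 5, Po and 9 the value was r = 0.54 with a permutation adjusted p of 0.0534, and with the number of genes at the lowest value regressed out it was r = 0.50 with a permutation adjusted p of 0.0555. The luminal list had r = -0.28 with CLU and did not pass. CFD passed with none of the 14 lists. Its highest r was 0.25, with fibroblast and with T cell, and its r with the adipocyte list was -0.12.

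**Figure D5:**
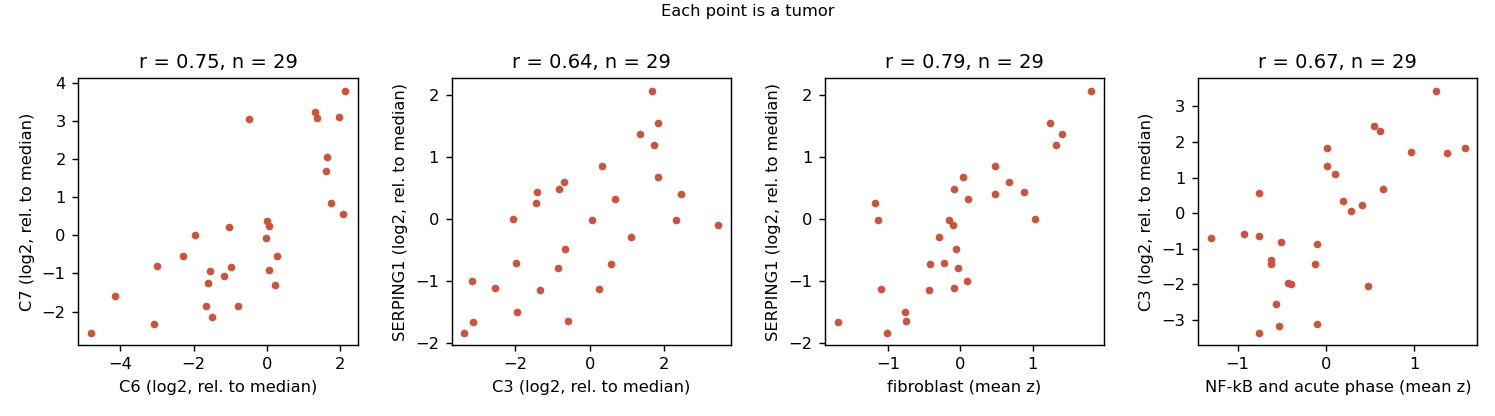
Scatter plots over the 29 tumors, 1 point a tumor, of C7 against C6, SERPING1 against C3, SERPING1 against the fibroblast score and C3 against the NF-kB and acute phase score, with log2 values relative to the gene median and scores as mean z. The values of r are 0.75, 0.64, 0.79 and 0.67, and 5 tumors stand above 3 in C7.

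The genes whose pattern over the tumors was most like that of each member were ranked by Pearson's r among 10963 genes with a symbol that lay above the lowest value in at least 15 tumors, as a description with no test. For C6 they were LAMA2 (r = 0.91), GFPT2 (0.91) and PEG3 (0.91), where LAMA2 is a laminin chain, and C7 was at rank 47. For C7 they were MFAP4 (r = 0.88), COL14A1 (0.85) and PTGDS (0.85), the first 2 of which encode matrix proteins, and C6 was at rank 39. For SERPING1 they were GLI1 (r = 0.88), a transcription factor of the hedgehog pathway, LIX1L (0.85) and PRKD1 (0.84). For C3 they were CCL20 (r = 0.81), a chemokine, TNFSF15 (0.79), a cytokine of the tumor necrosis factor family, and HAS2 (0.71), a hyaluronan synthase, and SERPING1 was at rank 24. CLU was most like CAV2 (r = 0.77), CD44 (0.72), which is in the basal list, and CHID1 (0.71). CFD was most like ARHGAP28 (r = 0.76), PTX3 (0.72), a secreted pentraxin that binds C1q, and BICC1 (0.70). C5 had the lowest top value, with CBD1 (r = 0.70), a beta-defensin, CA4 (0.69), a carbonic anhydrase, and MARCO (0.67), a scavenger receptor in the macrophage list. The points of each r share a library, so part of a high value can come from what the libraries have in common.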

How the data were processed

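RNA from 29 canine iUC tumors and 4 normal bladder mucosa samples was sequenced. The authors aligned paired-end reads to CanFam 3.1 with COBWeb in Strand NGS, normalized by TMM and, separately, by DESeq, and deposited log2 values, which the values show to be centred per gene on its median in all 33 samples. The tables hold no counts, so depth per sample is unknown and no count test was run. The last, incomplete line of both tables was dropped. The authors' TMM and DESeq tables hold 25096 and 25139 genes, and listed genes without a symbol match, C2 and CFB among them, were not analysed here.

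Groups follow the sample labels. Genes entered the tests when 4 or more samples exceeded the shared lowest value, or when no lowest value was shared. The TMM values were fitted by lmFit and eBayes (trend on) of limma 3.58.1, R 4.3.3, checked on simulated data. Because genes are centred, the trend carries little abundance. Correlations and exact permutation tests used Python 3.11.15 with numpy 2.4.6 and pandas 2.3.3, and figures matplotlib 3.10.9. Named genes were all members, the 3 largest called rises and falls of the complement lists, all genes of role groups with at most 5 measured, and the 3 nearest genes of each member. COLEC11, C1QA, C1QB, C1QC and MASP2 were named after their values were seen. RefSeq (UU_Cfam_GSD_1.0) was used for names and neighbors only. Members, lists and tests were chosen with earlier results of these data known. Alternatives were the authors' DESeq table, no trend, group weights, other filters, another centring, each normal left out, 3 tumors left out, no fold limit, Spearman's rho and the number of genes at the lowest value regressed out.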

Additional observations from a re-analysis of the deposited data

How the results depend on the processing

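The 5 called members kept their direction and their calls under every alternative run, and C3 and C5 were not called under any. Across these settings the log2 fold change lay between -5.83 and -5.45 for C7, -3.90 and -3.46 for C6, -2.22 and -1.74 for CFD, -1.72 and -1.32 for SERPING1, and 2.35 and 2.96 for CLU, with the DESeq table at the low end of each range. In that table the fold changes of all genes were shifted by a median of -0.30, which is the shift seen in these members too. Of the other complement genes 9 to 10 were called lower, the addition being VTN in the DESeq table (log2 fold change -1.21) and with no fold limit, or 7 where genes had to lie above the lowest value in at least 17 samples, which leaves out C8A and C8B. Over all genes, 12045 of 24517 were called lower in the DESeq table, and 30.1% with the filter of 17 samples. With that filter the share of the complement genes lay somewhat above the share of all genes, a difference that was not tested. Without tumors 5, Po and 9, 2 of the 5 related pairs of members passed, and 8 of the 17 relations with gene lists did. In the DESeq table the 17 list relations passed, and so did C3 and C5 with the B and plasma cell list (r = 0.46 and 0.47, permutation adjusted p = 0.0496 for each). With Spearman's rho 11 of the 17 list relations passed, and with the number of genes at the lowest value regressed out 11 did. The cause of these losses was not tested. No paired analysis was possible because the normals and tumors come from different dogs and share no replicate number. Depth per sample is unknown, 4 normals set the precision of each fold change, and a p that misses the threshold does not show that values did not differ.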
